A study of Mus musculus with 16 samples.

Results

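Short-read RNA-Seq of whole spleen was compared between male C57BL/6 mice with free access to chow (fed) and mice fasted for 24 h (fasting). The 2 spleen libraries were chosen by their labels from the 16 libraries of the series, which hold 8 tissues under the same 2 treatments. The mice came from the Jackson Laboratory at 12 weeks of age and were killed at 10 in the morning. Spleens of the 3 mice of a group were pooled before RNA extraction, so each treatment has 1 library and no difference below has a replicate check. The study's methods give 3 mice per group in all, so the 8 tissues of a treatment come from shared animals. The comparison asks what 24 h without food does to the transcriptome of this organ. All levels are CPM, the counts scaled to equal library totals, and each log2 fold change is log2((CPM fasting + 0.01)/(CPM fed + 0.01)).

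The spleen holds follicles of B cells, T cell zones, and a red pulp in which macrophages take up old red blood cells and recycle their iron. In the adult mouse it also makes red blood cells, which in other adult mammals is largely left to the bone marrow. Fasting raises corticosterone and lowers insulin, which act on genes through the glucocorticoid receptor and the FoxO factors, and it releases fatty acids, the ligands of the PPAR receptors. Cholesterol synthesis is under the control of the SREBP factors, which bind sterol regulatory elements in promoters.

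The fed library held 22649767 counts and the fasting library 27832852, within the 14245178 to 36069968 counts of all 16 libraries, and 3 counts, the floor used here, stood for 0.132 and 0.108 CPM. Intervals of a fold change are exact 95% intervals of the ratio of counts and cover counting error only. The B cell markers fitted the label. Ighm, the heavy chain of IgM, was at 4880 CPM fed and 5195 CPM fasting, a log2 fold change of 0.09. Ms4a1, the B cell surface protein CD20, was at 883 and 861 CPM, a log2 fold change of -0.04. The 16 B cell markers summed to 13070 and 12636 CPM, against 16.8 to 687 CPM in the other 14 libraries.

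A gene was called where its log2 fold change exceeded 0.5 in size and a two-sided Fisher's exact test comparing its count with all other counts in both libraries gave an unadjusted p-value under 0.01, the thresholds of the study. This compares 2 libraries, not the conditions. Of 29373 genes with a count, 678 were called up (2.31%) and 475 down (1.62%). Of the 17358 genes at 1 CPM or more in either library, 3.62% were called up and 2.33% down, and their median log2 fold change was -0.02. An exact test that assumes a coefficient of variation of 0.2 between pools left 0.645% of these genes called up and 0.472% called down, and is named below as the stricter call. Exocrine pancreas genes made up 35 of the 475 falls and are kept apart at the end.

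**Figure D1:**
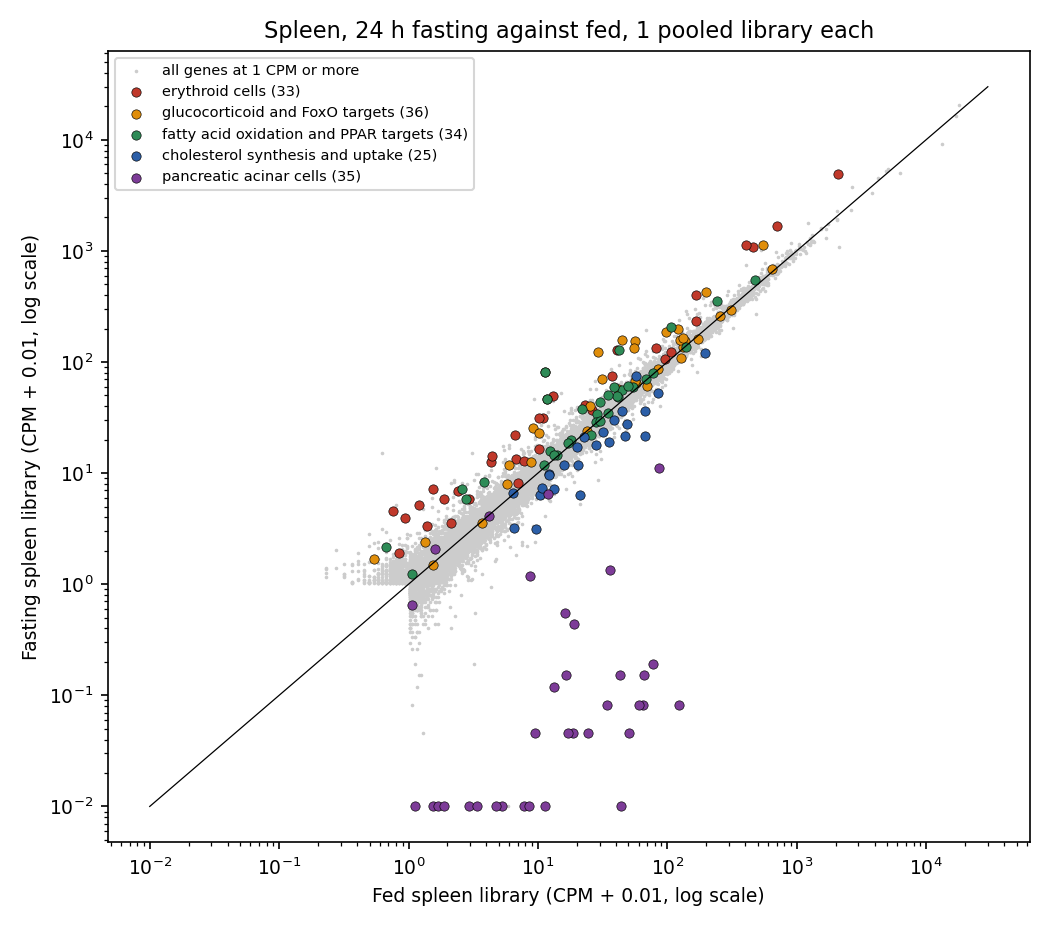
CPM + 0.01 of each gene at 1 CPM or more in the fed (x axis) and fasting (y axis) spleen library, both on log scales, with the members of 5 gene lists in colour and the line of equal values. Erythroid genes lie above the line, 23 of 25 genes of the cholesterol list below it, and most acinar genes at the bottom, where the fasting library held no or few counts.

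Genes of red blood cell formation rose in the fasting library. Of 33 erythroid genes at 1 CPM or more, 29 rose, none fell, and 18 passed the stricter call. All 33 had a positive log2 fold change, with a median of 1.25. The whole list, with the members under 1 CPM, summed to 4490 CPM fed and 10374 CPM fasting, 2.31 times as high. The 4 adult globin genes summed to 3649 CPM fed and 8835 CPM fasting, and the other 29 members to 841 and 1538 CPM.

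Hbb-bs, an adult beta globin at chr7:103826534-103828096 (GRCm38), was measured at 2075 CPM (fed) and 4947 CPM (fasting), with a log2 fold change of 1.25 (95% interval 1.24 to 1.27). Hba-a1, an alpha globin, went from 709 to 1680 CPM. The copies Hba-a1 and Hba-a2 are nearly identical, so reads could be split between them in counting, as between Hbb-bs and Hbb-bt. Alas2, which starts haem synthesis in erythroid cells, rose from 166 to 398 CPM, and Fech, which puts the iron into haem, from 81.3 to 135 CPM.

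The median log2 fold change was 1.25 for the 4 globins and 1.27 for the other 29 members. Sptb, erythroid beta spectrin, had a log2 fold change of 1.64. Ank1, the ankyrin that ties spectrin to the membrane, was at 1.73, and Slc4a1, the anion exchanger band 3, at 1.65 with 41.1 and 129 CPM. The blood group proteins had the largest values, with 17 counts against 127 for Rhag (log2 fold change 2.59, 1.87 to 3.43), 2.21 for Kel and 2.11 for Rhd. Counts of this size leave wide intervals. Klf1, a transcription factor of erythroid genes, rose from 0.927 to 3.95 CPM, and Epor, the erythropoietin receptor, from 2.91 to 5.89 CPM. Gata1, another erythroid transcription factor, rose by less, with a log2 fold change of 0.74.

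The 4 members that were not called were Tfrc, the transferrin receptor (0.13), Nfe2 (0.20), Xpo7 (0.23) and Slc25a37, which brings iron into mitochondria (0.49). None of 38 genes of cell division was called, and their median was -0.03. Replication-dependent histone genes had 2 rises among 46 members, with 41 positive values and a median of 0.20. The 12 megakaryocyte and platelet genes were all positive, between 0.06 and 0.48, and none was called. In a bulk sample more cells of a type and more RNA per cell cannot be told apart.

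**Figure D2:**
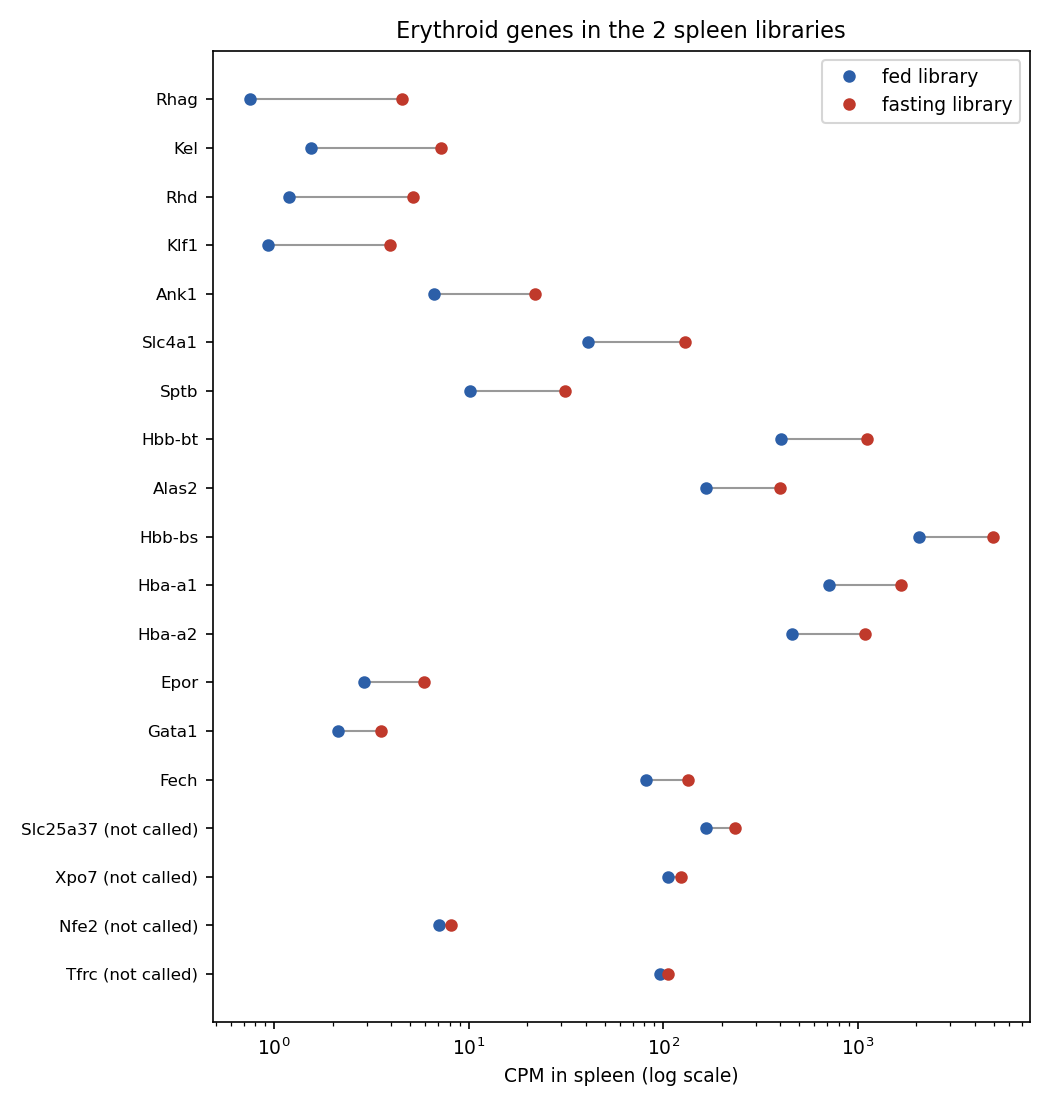
CPM of the 19 erythroid genes named in the text in the fed (blue) and fasting (red) spleen library on a log axis, ordered by log2 fold change, with 1 library per point. All red points lie to the right of the blue ones, and the 4 genes at the bottom were not called.

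In the other 7 tissues the erythroid list had medians between -0.34 and 0.33. These medians rest on the members at 1 CPM or more in each tissue, which were 27 in lung and 15 to 20 in the other 6 tissues. The difference between spleen and the other tissues was tested for each gene as a spleen-by-fasting interaction in edgeR over 16 libraries, which takes its error from the spread among the other 7 tissues. These tissues share the same 3 fed and 3 fasted mice, so the spread does not measure variation between animals. No erythroid gene passed this test. The lowest adjusted p-value of the edgeR test was 0.452, for Hbb-bt. Its fitted spleen response was 1.38 higher on the log2 scale than that fitted jointly to the other tissues. The summed erythroid level in spleen was close to that in lung when fed (4412 CPM in lung) and above all other libraries when fasting.

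**Figure D3:**
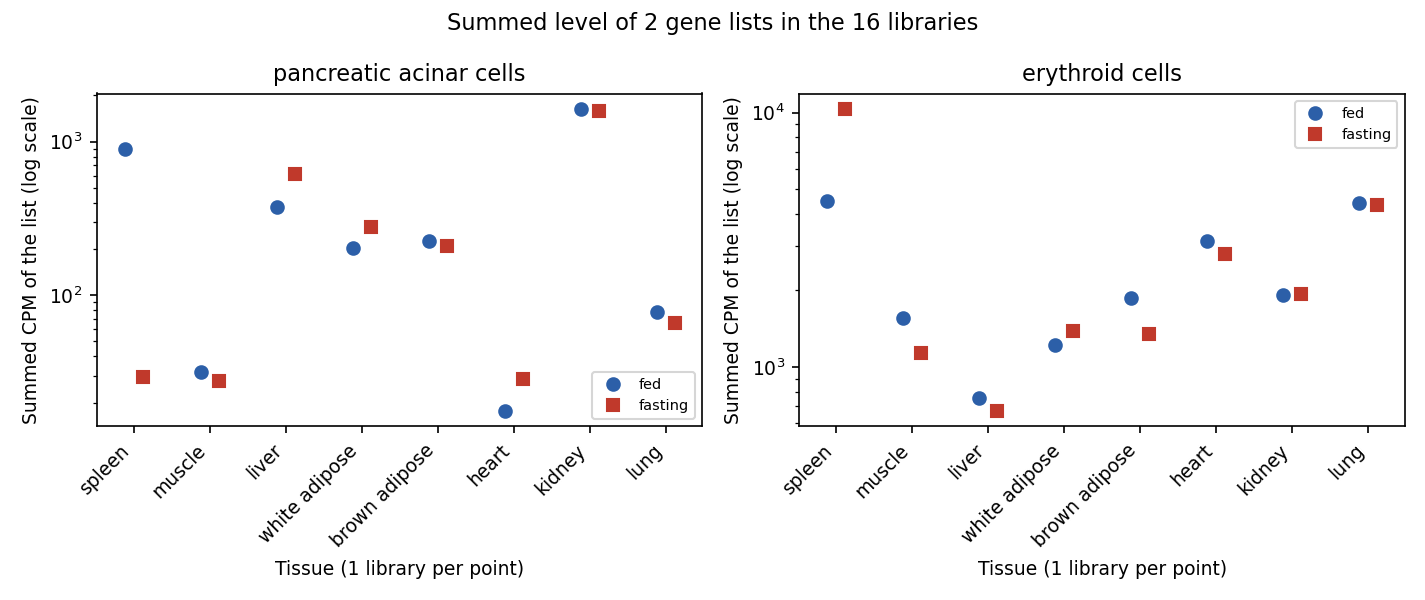
Summed CPM, on log axes, of the pancreatic acinar list (left) and the erythroid list (right) in each of the 16 libraries, with fed libraries as circles and fasting libraries as squares. In spleen the acinar sum was 902 CPM fed and 29.6 CPM fasting, and the erythroid sum 4490 CPM fed and 10374 CPM fasting.

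Targets of the glucocorticoid receptor and of FoxO rose in spleen, as a part of the list. Of 36 members, 18 rose, none fell, and 11 passed the stricter call, with a median of 0.49. Pdk4, the kinase that shuts off pyruvate dehydrogenase and spares glucose, had the largest rise of a named metabolic enzyme. It lies at chr6:5483351-5496309 (GRCm38) and went from 256 to 2242 counts, or 11.3 to 80.6 CPM, a log2 fold change of 2.83 (2.65 to 3.03). In the other 7 tissues its log2 fold change had a median of 3.48 and was higher than in spleen in 5.

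Errfi1, a feedback inhibitor of the EGF receptor, went from 29.3 to 122 CPM, a log2 fold change of 2.06 (1.94 to 2.18). This was above the values of all 7 other tissues, whose median was 0.65, although the interaction test did not pass. Ddit4, an inhibitor of mTORC1, was at 157 CPM when fasting, with a log2 fold change of 1.81. Angptl4, an inhibitor of lipoprotein lipase, rose from 11.7 to 46.0 CPM (1.98). Fkbp5, a co-chaperone of the glucocorticoid receptor, rose from 56.6 to 154 CPM (1.45). Tsc22d3, which encodes the glucocorticoid-induced leucine zipper GILZ, rose from 199 to 430 CPM (1.11).

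Zbtb16 (1.46), Pik3ip1 (1.28), Klf9 (1.16), Cebpd (1.16), Txnip (1.04) and Klf15 (1.01) rose as well. Il7r, the interleukin 7 receptor and a FoxO1 target in T cells, went from 98.2 to 185 CPM (0.91). It was the only gene of 18 T cell markers that was called, and the median of that list was 0.00.

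The other 18 members did not reach the threshold in spleen. Cdkn1a, a cell cycle inhibitor, had 84 and 99 counts and a log2 fold change of -0.06, against a median of 1.48 in the other tissues. Mt2, a metallothionein, had 35 and 41 counts and a value of -0.07, against 1.06. Arrdc2 had 542 and 668 counts and a value of 0.00, against a median of 1.67 elsewhere. Each of these 3 values lay below those of at least 6 of the 7 other tissues. The interaction test was passed by none of the 36 members, and the medians of the list in the other tissues lay between 0.44 and 1.48.

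Promoter windows from RefSeq (GRCm38.p6, 250 bases before to 50 after an annotated start) are shown for 3 genes of these lists whose windows hold a searched motif, given 5′ to 3′ on the gene's strand with the match in capitals. Tsc22d3 (chrX:140600473-140600772, minus strand) holds the glucocorticoid receptor core TGTTCT, searched on both strands, beginning 185 bases before the start. Fkbp5 (chr17:28486100-28486399, minus strand) holds the E-box CACGTG 169 bases before the start. Hmgcs1 (chr13:119690101-119690400, plus strand) holds the sterol regulatory element TCACNCCAC 137 bases before the start.
Tsc22d3: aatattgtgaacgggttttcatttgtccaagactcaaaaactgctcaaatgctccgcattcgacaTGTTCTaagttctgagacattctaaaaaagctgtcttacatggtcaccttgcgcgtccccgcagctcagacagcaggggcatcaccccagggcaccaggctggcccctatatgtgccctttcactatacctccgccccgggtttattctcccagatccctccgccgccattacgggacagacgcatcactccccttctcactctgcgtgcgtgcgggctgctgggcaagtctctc
Fkbp5: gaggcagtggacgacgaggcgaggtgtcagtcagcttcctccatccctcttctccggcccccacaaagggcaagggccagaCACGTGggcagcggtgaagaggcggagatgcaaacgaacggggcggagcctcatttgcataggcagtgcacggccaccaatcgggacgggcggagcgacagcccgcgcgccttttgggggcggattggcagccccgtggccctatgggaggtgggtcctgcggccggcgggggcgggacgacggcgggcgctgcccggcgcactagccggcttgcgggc
Hmgcs1: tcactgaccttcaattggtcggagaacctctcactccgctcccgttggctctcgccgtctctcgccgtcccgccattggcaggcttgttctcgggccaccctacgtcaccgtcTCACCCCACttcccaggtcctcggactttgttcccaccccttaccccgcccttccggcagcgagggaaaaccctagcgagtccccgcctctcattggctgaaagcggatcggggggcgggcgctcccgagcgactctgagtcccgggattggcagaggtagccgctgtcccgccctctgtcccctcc

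Over all genes with a window, 21.28% held the core TGTTCT in at least 1 window, against 3 of 30 glucocorticoid and FoxO genes. The E-box was in a window of 8.09% of all genes and of 8 of these 30 (26.67%), and the sterol element in 1.44% of all genes and in 1 of 18 cholesterol genes (5.56%). By windows, 18.97%, 7.15% and 1.24% of all 32817 held the core, the E-box and the sterol element. The other 2 windows of Tsc22d3 and the window of Fkbp5 hold no match to the core, and the other 2 list genes with a match, Sgk1 (log2 fold change 0.19) and Bcl6 (-0.20), were not called. The sterol element was also in a window of 3 of 26 fatty acid oxidation and PPAR genes (11.54%). The E-box was as frequent in lists that hardly moved, with 42.11% of 19 autophagy and lysosome genes and 29.17% of 24 ribosome biogenesis genes. It was in no window of 22 erythroid genes. A match is a description of the sequence and not a bound site, and N stands for any base.

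Genes of cholesterol synthesis and uptake fell together. Of 25 members at 1 CPM or more, 15 fell, none rose, and 23 had a negative log2 fold change, with a median of -0.69 and summed levels of 929 and 604 CPM. The stricter call kept 4 of them. Sqle, squalene epoxidase at chr15:59315077-59331192 (GRCm38), went from 478 to 177 counts, or 21.1 to 6.36 CPM, a log2 fold change of -1.73 (-1.99 to -1.48). Idi1, an isomerase of the isoprenoid steps, was at -1.60 and Cyp51, a demethylase of lanosterol, at -1.14.

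Hmgcs1, a synthase at the head of the pathway, was at -0.88. Srebf2, the transcription factor of the pathway, was at -0.69 with 195 and 121 CPM, and Insig1, which holds SREBP in the endoplasmic reticulum, at -0.81. The late enzyme Dhcr7 (-0.42) was not called. In the other 7 tissues the medians of this list were all negative, the lowest in liver and the highest in heart (-0.56), and none of its members passed the interaction test. Genes of cholesterol export and LXR targets had no call among 9, with a median of 0.18. Fatty acid synthesis had 1 rise among 13 lipogenesis genes, Thrsp at 1.90 and 3.27 CPM, and Srebf1 was at 89.7 and 68.8 CPM (-0.38).

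Some genes of fatty acid oxidation rose. Of 34 genes of oxidation and PPAR targets, 13 rose and none fell, and 5 passed the stricter call, with a median of 0.26. Pdk4 and Angptl4 belong to this list too. Cpt1a, which brings long fatty acids into mitochondria, rose from 106 to 207 CPM (0.96), and its partner Slc25a20, the carnitine carrier, from 21.9 to 38.0 CPM (0.80). Acot1, a thioesterase with near-identical copies, rose from 2.56 to 7.11 CPM (1.47), below all 7 other tissues, whose median was 2.84.

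Among enzymes of the oxidation cycle itself, the thiolase Acaa2 rose from 30.4 to 43.4 CPM (0.51), and several others were not called. Hadha (139 and 136 CPM), Hadhb (77.7 and 79.6 CPM) and Acadm (54.0 and 59.0 CPM) had log2 fold changes between -0.03 and 0.13. Ucp2, a mitochondrial carrier that was at 475 and 548 CPM (0.21), had positive and larger values in all 7 other tissues, with a median of 1.23. Adipoq, an adipocyte hormone, was at 28 and 33 counts, and of 6 adipocyte genes at 1 CPM or more, Pck1 (0.92) and Cfd (1.04) were called up.

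**Figure D4:**
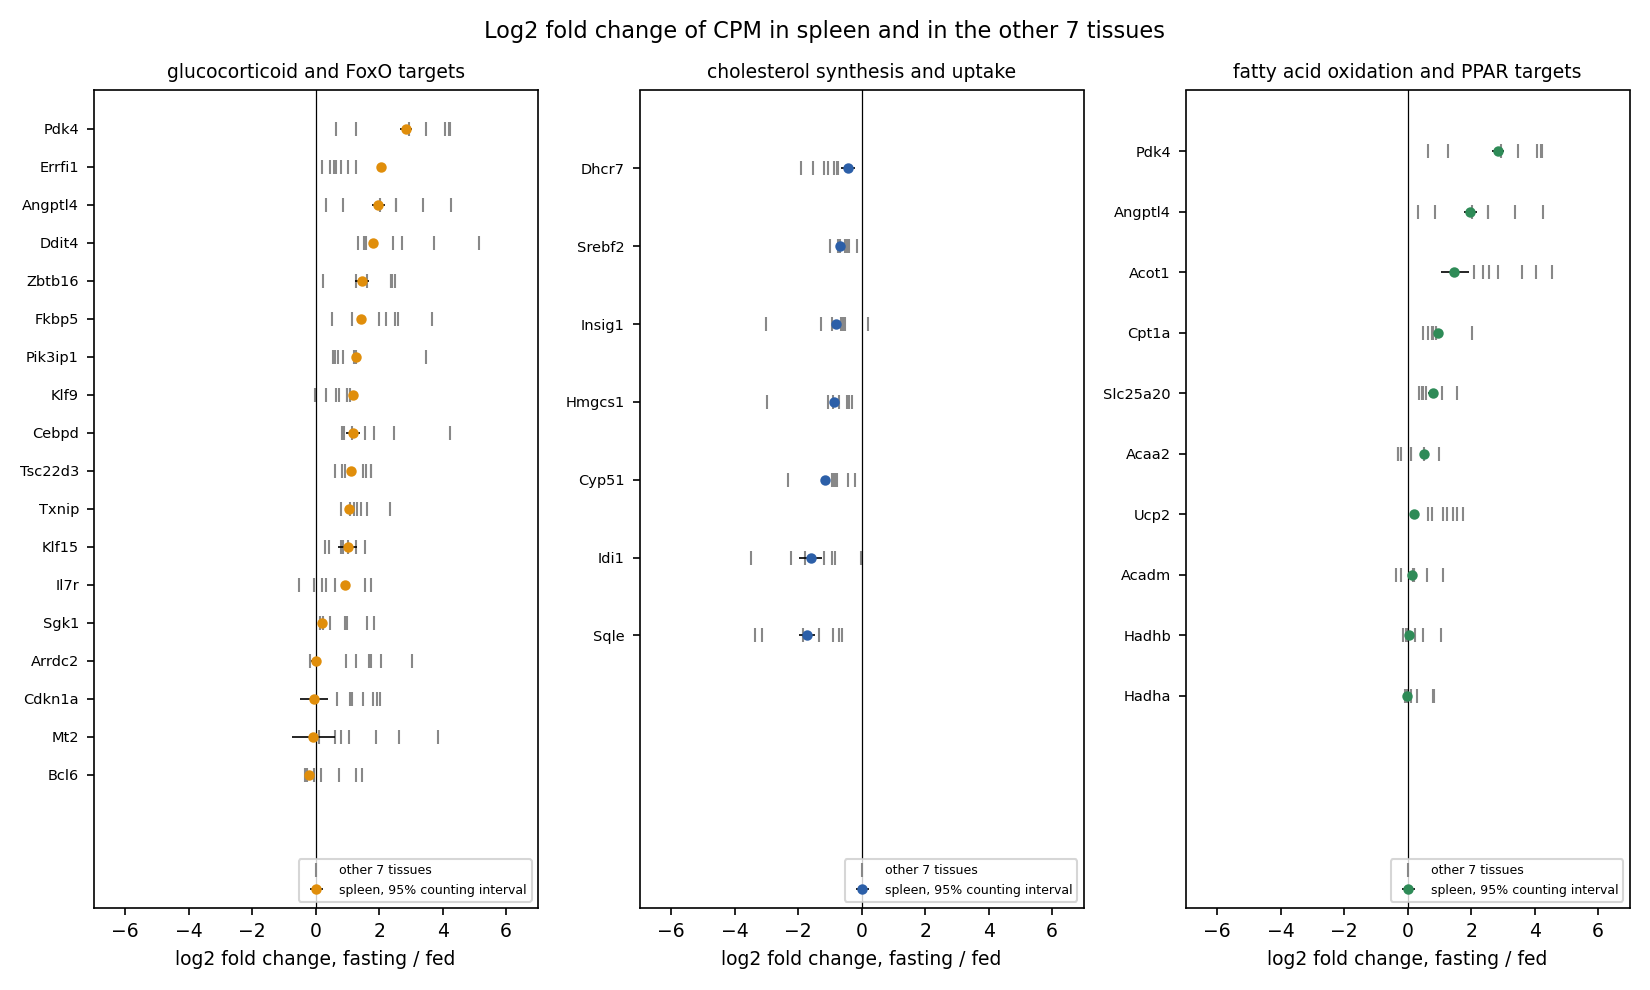
Log2 fold change of the members of 3 lists that the text names, in spleen (coloured points with exact 95% counting intervals) and in each of the other 7 tissues (grey ticks). All 7 plotted cholesterol genes lie left of 0 in spleen, and no plotted glucocorticoid, FoxO or oxidation gene was called down.

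Macrophage genes of the spleen rose in part. Of 14 red pulp macrophage genes 3 rose, 1 of them by the stricter call, and none fell, with a median of 0.29 and summed levels of 3188 and 4272 CPM. Cd163, the scavenger receptor for haemoglobin, rose from 42.4 to 93.3 CPM (1.14, 1.03 to 1.25) and had positive values in all 7 other tissues. Vcam1, an adhesion molecule of these macrophages, rose from 527 to 1023 CPM (0.96), and Mertk, a receptor for apoptotic cells, from 120 to 190 CPM (0.67). Spic, the transcription factor of red pulp macrophages, was at 103 and 128 CPM (0.32) and was not called.

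The enzyme and the exporter of iron recycling were not called. Hmox1, haem oxygenase 1, was at 228 and 199 CPM (-0.20), and the iron exporter Slc40a1 at 489 and 576 CPM (0.24). Of 5 marginal zone macrophage genes, Cd209b (20.2 to 39.3 CPM, 0.96) and Marco (148 to 247 CPM, 0.74) rose, neither by the stricter call, and all 5 were positive.

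Few members of the lymphocyte marker lists were called. The immunoglobulin variable segments are in none of these lists, and 20.9% of 91 heavy chain and 28.4% of 88 kappa segments were called in either direction. Of 16 B cell genes 1 fell, Fcer2a, the low-affinity IgE receptor CD23, from 319 to 203 CPM (-0.65), and its values were negative in all 7 other tissues. None of 10 plasma cell, 8 germinal centre or 5 marginal zone B cell genes was called. The 11 genes of MHC class II presentation were all negative, between -0.21 and -0.04, and none was called. Of 19 lymphoid chemokines and receptors 2 rose and 2 fell, with a median of -0.06. Cxcr4, the receptor of Cxcl12, rose from 104 to 198 CPM (0.92). Ccl19, a chemokine of the T cell zone, fell from 27 to 10 counts (-1.70), and Ccr6, a chemokine receptor of B cells, fell by 0.56 on the log2 scale. Ctla4, a brake on T cells, rose from 6.67 to 11.1 CPM among 5 regulatory T cell genes.

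Some genes of myeloid cells and some cytokines fell. Of 13 neutrophil genes 5 fell, S100a8 and S100a9 by 0.72 each on the log2 scale and Retnlg by 1.09, while the granule genes Ngp (0.84) and Ltf (0.83) rose. None of these calls passed the stricter call. With TMM factors in the Fisher call, only 3 of the 5 falls stayed called. Of 8 monocyte markers, Ccr2 (65.6 to 41.6 CPM) and F13a1 (19.9 to 10.6 CPM) fell, none rose, neither passed the stricter call, and the median was -0.25. Of 18 cytokines and growth factors 3 fell and none rose, 10 were positive, and the median was 0.05. Il1b, the cytokine interleukin 1 beta, went from 27.8 to 12.5 CPM (-1.15, -1.34 to -0.96) and passed the stricter call, and Tnf was at 20.0 and 13.4 CPM (-0.57).

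Contractile and matrix genes also fell in part. Of 8 smooth muscle genes 3 fell, among them Cnn1 (6.71 to 1.83 CPM, -1.87) and Acta2, smooth muscle actin (87.3 to 39.9 CPM, -1.13). Of 27 matrix genes 6 fell, with Col3a1 at 170 and 81.1 CPM (-1.07), Col1a1 at 76.2 and 43.4 CPM (-0.81) and the matricellular gene Ccn1 at 21.3 and 6.75 CPM (-1.65). Lox, which crosslinks collagen (5.92 to 17.8 CPM, 1.59), and Ccn2 (36.9 to 87.3 CPM, 1.24) rose. The stricter call kept 2 of the 3 smooth muscle falls, 1 of the 6 matrix falls and these 2 matrix rises.

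**Figure D5:**
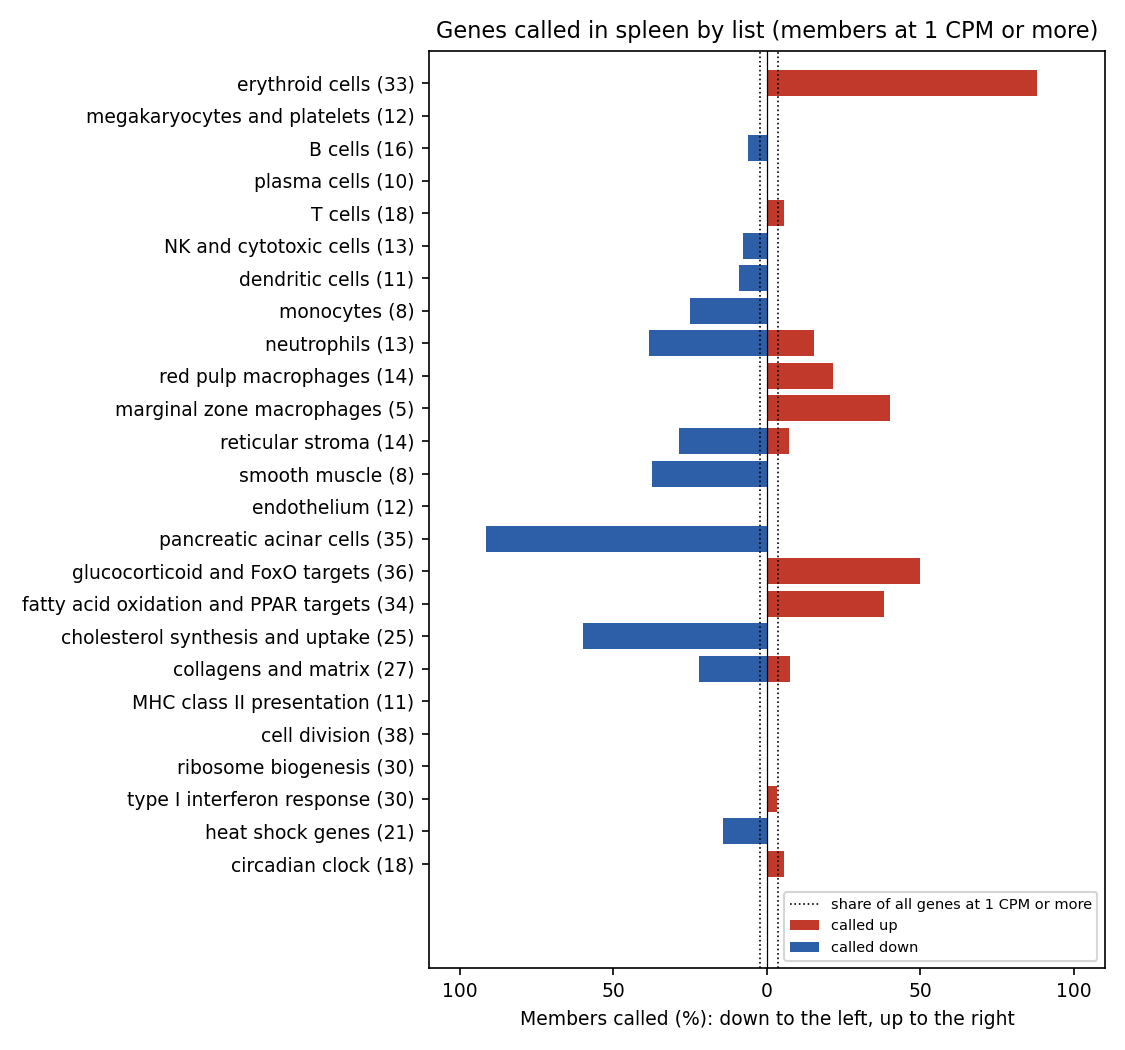
Percent of the members at 1 CPM or more (number in brackets) called up (red, right) and down (blue, left) in spleen for 25 lists, with dotted lines at 3.62% and 2.33%, the shares of all genes at 1 CPM or more. The erythroid, acinar, cholesterol and glucocorticoid lists had the longest bars.

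Among genes at 10 CPM or more in a library, acinar genes aside, the largest rise was that of Gm10591, from 14 to 419 counts (log2 fold change 4.58), a gene with near-identical copies at its locus, so its count depends on how shared reads were assigned. Pdk4 followed, then Cyp4a14, a fatty acid omega hydroxylase and PPAR alpha target (1.63 to 11.2 CPM, 2.77). Peg3, an imprinted zinc finger gene, rose from 9.36 to 46.3 CPM (2.31, 2.10 to 2.52) and was positive in all 7 other tissues. Mat1a, an S-adenosylmethionine synthetase (2.30), and Agtr1a, an angiotensin receptor (15.0 to 52.5 CPM, 1.81), were among the 10 as well.

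Of the 10 largest falls 4 were immunoglobulin variable segments, led by Ighv1-66 (482 to 145 counts, -2.03) and Igkv8-28 (657 to 240 counts, -1.75). Such segments differ between animals and resemble each other in sequence. Sqle and Ccn1, described above, were among them. Pcdh18, a protocadherin (48.4 to 20.7 CPM, -1.23), Gdf6, a growth factor of the BMP group (30.7 to 13.3 CPM, -1.21), and Lilr4b, an inhibitory receptor of myeloid cells (19.2 to 8.37 CPM, -1.19), belonged to the 10 as well, as did Ighv5-9 and Ighv1-7.

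Genes called in the other 7 tissues were read out in spleen. An edgeR fit of fasting with tissue as a block over the 14 other libraries called 246 genes up (1.10%) and 227 down (1.01%) at an adjusted p-value under 0.05. The 7 tissues stand in for replicates in this fit, although they share the same 3 mice per group. The spleens came from these mice too, so in this readout fasting and differences between the pools of mice cannot be told apart. Leaving out 1 tissue moved this count of 473, to 47 without brown adipose, 66 without muscle, 80 without heart, 176 without lung, 232 without kidney and 310 without liver. Of the 219 higher genes at 1 CPM or more in spleen, 187 were positive in spleen and 67 were called up. Of the 209 lower genes, 170 were negative, 28 were called down and 2 up. In spleen the medians were 0.30 and -0.16, against 0.77 and -0.65 in the other tissues, and 46.0% of all spleen genes were positive. The genes were chosen on their values in the other tissues, which makes the medians there larger in size. Those are also fitted values and the spleen values are CPM ratios, so the medians do not show a weaker response in spleen.

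Among the strongest genes elsewhere, Pclaf, a PCNA-associated factor of dividing cells, was at -0.26 in spleen and -1.55 in the other tissues, with 530 and 544 counts in spleen. Srebf1 was at -0.38 and -1.43. Col15a1, a basement membrane collagen, was at -0.92 and -1.57, and Ddit4 at 1.81 and 2.64. None of these differences passed the interaction test. The genes were named for large values in the other tissues, which by itself favours smaller values in spleen.

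Exocrine pancreas genes were high in the fed spleen library and near the floor in the fasting one. The pancreas touches the spleen, and the list is given apart for that reason. Of 35 acinar genes at 1 CPM or more, 32 fell and none rose. Most of the 35 reached 1 CPM only in the fed library, so this filter by itself favours falls and a low median. The sum of the whole list does not depend on it. The whole list of 47 genes summed to 902 CPM in the fed library, 0.0902% of its counts, and 29.6 CPM in the fasting library. In the fasting library 12 of the 35 had no count, 10 had 1 to 3 counts and 13 had more. The median log2 fold change was -8.19, or -6.19 with every gene at 3 counts or fewer set to 3.

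Pnlip, pancreatic lipase, had 2812 counts when fed against 2 when fasting. Cpa1, a carboxypeptidase, had 1488 and 4, and Cela1, an elastase, 1948 and 308. None of the 7 islet genes had a count in either library. The acinar sum lay between 17.5 and 1641 CPM in the other 14 libraries, and the fasting value was the higher of a pair in liver (375 and 613 CPM), white adipose (203 and 279 CPM) and heart. Sums outside spleen and liver rest on few genes. Of the 35 members, 29 reached 1 CPM in liver, 6 in lung, 5 in kidney, 4 in white adipose, 3 in heart, and 2 each in brown adipose and muscle.

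The spleen-by-fasting interaction called 7 of 23580 genes (0.0297%), all lower in spleen and all from this list (Ctrb1, Pnlip, Cela2a, Cpb1, Cpa1, Cel and Pnliprp1). Their adjusted p-values started at 0.0176, and 390 genes had an unadjusted p-value under 0.05. DESeq2 called 17 genes. Leaving out a tissue gave 0 without liver, 2 without kidney, 4 without heart, 4 without muscle and 16 without white adipose. In the fit without liver, 5 of the 7 genes had no value, and the other 2, Cpb1 and Pnliprp1, were at adjusted p-values of 0.205 and 0.288. These 5 passed the count filter only with the liver libraries included. The 7 calls restate the acinar counts of the 2 spleen libraries given above and add no separate evidence. No gene outside the acinar list was called in the edgeR test, so no response described above was shown to differ from that of the other tissues. Taking the acinar counts out of the library totals gave 676 rises and 480 falls, and left the calls of all 210 genes of the naming rule as they were. Whether pancreas was carried along with the fed spleens was not tested.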

How the data were processed

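Whole-tissue RNA was measured by short-read RNA-Seq in 1 pooled library per tissue and treatment. Per the study's methods and the submitters' processing notes, the authors used fastp 0.23.2 for trimming and FastQC 0.11.8 for quality control. HISAT2 2.2.1.0 served for alignment to GRCm38, and featureCounts (Subread 2.0) assigned the reads to genes of the mouse GENCODE vM24 annotation. The deposited values are raw counts per gene, beside a gene length from the counting program that was not used as a measurement. The strand setting of the counting is not given in the sources used here, so reads of overlapping or antisense genes may be shared. Gene names came from GENCODE names matched by gene identifier, and 55144 of 55385 identifiers matched without their version. RefSeq tables gave synonyms of list genes and the promoter windows (GRCm38.p6). The 37 mitochondrial genes had 0 counts in all 16 libraries.

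CPM used library totals. Calls took a two-sided Fisher's exact test on 2 libraries (unadjusted p-value under 0.01, log2 fold change over 0.5 in size, 0.01 CPM added). The stricter call assumed a coefficient of variation of 0.2. PCR reads without molecular identifiers are not independent molecules, so intervals and floors cover counting error only. Differences between spleen and the other 7 tissues were tested with edgeR 4.0.16 (quasi-likelihood, TMM, tissue as a block, 6 residual degrees of freedom, Benjamini-Hochberg adjustment). Alternatives were TMM and DESeq2 1.42.0 size factors, DESeq2's Wald test, filters on low counts, other thresholds, totals without acinar or erythroid genes (the latter added after seeing the data), and leaving out each tissue. The scripts ran in R 4.3.3 and Python 3.11.15 with scipy 1.17.1, and were tested on simulated data. There the Fisher call named 0.23% of unchanged genes with counting error only. With a coefficient of variation of 0.2 between pools it named 12.68%. The interaction test recovered 81 of 200 genes changed by 2 on the log2 scale, so a gene that did not pass may still differ.

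The named genes were the 10 largest called rises and falls at 10 CPM or more in a library (acinar genes left out), in each of 48 lists the 3 members with the highest mean CPM and up to 3 called members each way with the largest change at 5 CPM or more, Ighm and Ms4a1, and the 5 largest each way of the genes called in the interaction and in the other 7 tissues at 5 CPM or more in spleen. List members named outside this rule, such as Fkbp5, Alas2, Slc4a1, Rhag, Hmgcs1, Klf9 and Cdkn1a, were chosen after their values were seen. The members and the lists were chosen with earlier results of these data known. Values of a few list members are not reported here or plotted, and counts, sums and medians of the lists include them.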

Additional observations from a re-analysis of the deposited data

Results flagged for a closer look

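The response of 7 genes to fasting differed between spleen and the other 7 tissues in the spleen-by-fasting interaction (edgeR's quasi-likelihood test over 16 libraries, adjusted p-value under 0.05). All 7 are pancreatic acinar genes, and all were lower in spleen. Of 35 acinar genes, only 2 to 6 reached 1 CPM in each tissue other than spleen and liver. Ctrb1 and Cel had log2 fold changes of 0.0 in muscle, white adipose and brown adipose. The fitted log2 response in spleen minus that fitted jointly to the other 7 tissues was -11.93 for Ctrb1, -11.17 for Pnlip and -10.72 for Cela2a. It was -10.29 for Cpb1, -9.98 for Cpa1, -9.94 for Cel and -9.69 for Pnliprp1. The joint response weighs tissues by their counts and is not a mean over tissues. For Cel it was 1.28, with 1.45 in liver and -2.45 in kidney. With 1 to 5 counts in the fasting spleen library, the size of these fitted values depends on the prior count added in the fit. Of 10 alternative settings that gave them a value, Ctrb1 passed in 10, Pnlip in 9, Cela2a and Cpa1 in 8 and Cel in 3. Cpb1 passed in 10 and Pnliprp1 in 7 of 11 settings, both failing without liver, where the other 5 genes had no value. The tissues of a treatment share the same 3 mice. The cause was not tested.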

How the results depend on the processing

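Against 1153 calls in spleen (678 up, 475 down), a log2 fold change above 1 gave 482 (260 up, 222 down), an assumed coefficient of variation of 0.2 gave 243 (138 up, 105 down), and one of 0.4 gave 59 (12 up, 47 down). Adjusting the p-values gave 302 falls. TMM factors moved the split to 761 up and 424 down. The interaction count of 7 became 17 with DESeq2 and 18 with no filter, and 0 to 16 when 1 tissue was left out (lowest without liver). The 473 genes called in the other 7 tissues became 1746 with DESeq2, and 47 to 473 when 1 tissue was left out (lowest without brown adipose). No called gene of the naming rule changed sign in the alternatives run on it. The median log2 fold change of all genes at 1 CPM or more was -0.0177, and 0.0080 with TMM factors and 0.0047 with DESeq2 size factors. At a coefficient of variation of 0.4 falls outnumbered rises, and without the acinar list 12 rose and 13 fell. Of 306 list counts and named genes, TMM factors left 298 as they were, DESeq2 size factors 299, a pseudocount of 1 CPM 301 and a coefficient of variation of 0.2 217. Csf3r lost its call with TMM factors (-0.48), and Mup3 and Hist1h2ae with a pseudocount of 1 CPM. Genes under about 3 counts (0.132 CPM fed, 0.108 CPM fasting) were beyond this depth. No paired analysis was possible because each treatment has 1 pooled spleen library. The causes were not tested.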

Other observations

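Genes of melanin synthesis were counted in the fed spleen library and hardly in the fasting one. The 6 genes were chosen after their values were seen, and all 6 were called down. Dct, dopachrome tautomerase, had 133 counts fed and 0 fasting, at least 54.5-fold lower against a floor of 3 counts per library. Tyrp1 had 44 and 0 counts and Tyr, tyrosinase, 16 and 0. Pmel, a melanosome fibril protein, had 38 and 12 counts (log2 fold change -1.94). In the other 14 libraries Dct had between 0 and 96 counts.

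Immunoglobulin variable segments moved in both directions, while their sums were close. Of 91 heavy chain segments at 1 CPM or more, 10 rose and 9 fell, and their sum was 1024 CPM fed and 1050 CPM fasting. Of 88 kappa segments 9 rose and 16 fell, with sums of 1177 and 1148 CPM. None of 17 T cell receptor segments was called. Segments resemble each other in sequence, so counts could be shared between them, and each library pools 3 mice.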
